A study of Mus musculus with 2 samples.

Results

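B16-F10 melanoma cells recovered from mouse lung 6 h after tail vein injection were examined by single-cell RNA sequencing. The B16-F10 line derives from a mouse skin melanoma and grows in C57BL/6 mice, and its cells carried CellTracker Green CMFDA, a dye that stays inside the cell. Male wild-type C57BL/6 mice aged 8 to 10 weeks received 400000 labelled B16-F10 cells in 100 µl PBS, or PBS alone (control). The labels give 2 mice per treatment and the study's methods give 3 mice pooled per sample. Lungs were digested with collagenase, and Pecam1-positive, Ptprc-negative cells were sorted, together with the dyed cells of the injected lungs. The B16-F10 library held 104978816 UMIs and the control library 85794655. Each group was represented by 1 library, so no value had a replicate, no test was run, and all intervals are 95% intervals that cover counting error only.

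Melanoma cells were taken as barcodes of the B16-F10 library with at least 500 genes in which Pmel, Mlana, Dct and Tyrp1 together had at least 20 UMIs and at least 0.5% of all UMIs. A UMI (unique molecular identifier) marks 1 captured RNA molecule. The rule was met by 134 of 10335 barcodes with at least 500 genes (1.30%, exact Clopper-Pearson interval 1.09 to 1.53). In the library of the PBS-injected mice, 0 of 9659 such barcodes met it. At a floor of 3 counts this is a share of 0.0311%, which is not an exact interval. The 4 pigment genes chose the cells, so their levels are described here and support nothing. They were compared with 7987 endothelial cells (ECs) of the same library, defined by at least 2 UMIs of Pecam1 and Cdh5 together and 1000 to 5000 genes.

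Melanoma arises from melanocytes, the neural crest-derived pigment cells of the skin. Melanocytes make melanin in melanosomes, organelles related to lysosomes, under the control of the transcription factors Mitf, Sox10 and Pax3. In the lung, injected melanoma cells lodge in capillaries and lie against the endothelium, and B16 cells are known for low display of MHC class I molecules.

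The marker genes lie on different chromosomes of the mm10 mouse genome, with coordinates from the GENCODE M21 annotation. Dct (chromosome 14, 118012790 to 118052244, minus strand), Tyrp1 (chromosome 4, 80834123 to 80851719, plus strand) and Tyr encode the enzymes that make melanin. Pmel (chromosome 10, 128704195 to 128720238, plus strand) forms the fibrils on which melanin is laid down, and Mlana (chromosome 19, 29697824 to 29708634, plus strand) encodes a melanosomal membrane protein. Gpnmb (chromosome 6, 49036546 to 49070929, plus strand) encodes a Pmel-related glycoprotein that macrophages also express, and Ptgds (chromosome 2, 25466709 to 25470046, minus strand) encodes prostaglandin D synthase. The last pair were markers of the cells but were not part of the rule.

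Mitf is known to bind E-box letters, among them TCATGTG, called the M-box, and CACGTG. Both were searched on either strand in the 250 bases before the RefSeq start of each gene (GRCm38.p6). Of 27 genes in a list of pigment and melanosome genes, 21 had a promoter entry, and Pmel, Mlana, Slc45a2, Gpr143, Rab38 and Bace2 had none. TCATGTG stood in 6 of the 21 (28.6%), against 1068 of all 32851 promoters (3.25%). CACGTG stood in 6 of the 21 (28.6%), against 1978 of all promoters (6.02%). The list was counted by gene, with a hit in any promoter entry of the gene, and the background by promoter entry, so the shares differ in unit. The promoters of the 3 melanin enzymes each hold TCATGTG and are shown 5′ to 3′ on the strand of the gene, with these letters, or CACATGA where they are on the other strand, in capitals. They come from chr7:87493513-87493762 for Tyr (minus strand), chr4:80833963-80834212 for Tyrp1 (plus strand) and chr14:118052247-118052496 for Dct (minus strand).
Tyr: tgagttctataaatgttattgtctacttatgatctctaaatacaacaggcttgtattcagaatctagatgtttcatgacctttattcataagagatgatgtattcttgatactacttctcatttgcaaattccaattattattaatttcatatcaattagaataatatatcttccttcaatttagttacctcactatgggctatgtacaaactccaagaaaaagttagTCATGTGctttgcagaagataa
Tyrp1: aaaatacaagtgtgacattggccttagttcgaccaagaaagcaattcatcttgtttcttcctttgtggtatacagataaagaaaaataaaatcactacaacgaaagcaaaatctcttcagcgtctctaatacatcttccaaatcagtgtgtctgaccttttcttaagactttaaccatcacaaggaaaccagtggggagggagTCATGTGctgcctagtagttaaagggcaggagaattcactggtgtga
Dct: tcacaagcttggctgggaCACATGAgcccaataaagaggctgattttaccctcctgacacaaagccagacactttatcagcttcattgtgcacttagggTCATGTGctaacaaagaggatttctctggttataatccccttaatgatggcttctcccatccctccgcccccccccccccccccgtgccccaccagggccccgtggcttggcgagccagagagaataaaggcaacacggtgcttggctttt
The first base of the motif lies at -22 in Tyr, at -47 in Tyrp1, and at -232 and -151 in Dct, counted from -1 as the base next to the RefSeq start. For Tyrp1 the annotations differ: the GENCODE start, 80834123, lies inside the stretch shown, and the motif lies past it. Slc24a5 (-13), Tspan10 (-21) and Trpm1 (-142) hold the same letters. A match is a description of these letters and not a measured binding site.

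The melanoma cells were far from uniform in depth. They held 1114 to 147357 UMIs (median 5706.5) and 509 to 10012 genes (median 1540.5), against medians of 8753 UMIs and 3315 genes in ECs. Mitochondrial genes took 0.262% to 72.8% of their UMIs (median 8.77%), against a median of 2.45% in ECs, and 25 melanoma cells (18.7%) reached 20%, against 7 ECs (0.0876%). The 7 deepest cells, with 82466 to 147357 UMIs, held 42.2% of all melanoma UMIs, and the next cell had 62005. Of the melanoma cells, 13 had over 5000 genes and 37 under 1000, outside the limits set for ECs. Of the barcodes with at least 500 genes, 25 occurred in both libraries, and 1 of these was a melanoma cell.

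Just inside the limit on the share, the lowest cells had 0.573% (44 UMIs), 0.579% (44 UMIs) and 0.663% (23 UMIs) of pigment genes. Just outside it, 14 barcodes had enough UMIs but too low a share, the highest being 0.482% (43 UMIs, with 17 UMIs of Pecam1 and Cdh5), 0.466% and 0.447%. The fewest pigment UMIs inside were 21, 22 and 23. A further 9 barcodes had the share but too few UMIs, the nearest with 19, 19 and 17.

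Malat1, a long noncoding RNA that stays in the nucleus, was abundant in some of the cells and nearly missing in most. The 19 cells with at least 40 Malat1 UMIs per 10000 are called Malat1-bearing, and the other 115 (85.8%) Malat1-poor. This division was made after the values were seen, it is a range and not a cell type, and 4 cells lay within 2-fold of it. Malat1-bearing cells had 47.1 to 894 Malat1 UMIs per 10000 (median 163). Malat1-poor cells had 0 to 31.6 (median 1.47), and 37 of them had none. ECs had a median of 315, and 846 of 7987 (10.6%) were Malat1-poor by the same limit.

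**Figure D1:**
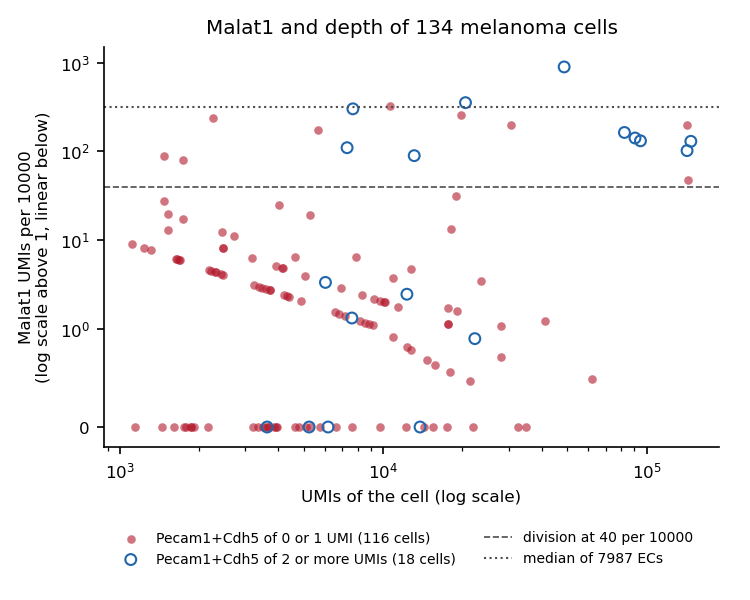
Malat1 UMIs per 10000 (vertical axis, linear near 0 and logarithmic above) against total UMIs (horizontal axis, log scale) in each of the 134 melanoma cells. Filled red points are the 116 cells with 0 or 1 UMI of Pecam1 and Cdh5 and open blue circles the 18 cells with at least 2, the dashed line at 40 divides the 19 Malat1-bearing cells above from the 115 Malat1-poor cells below, and the dotted line is the EC median of 315. The 7 deepest cells, with 82466 to 147357 UMIs, are all Malat1-bearing.

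Malat1-bearing cells were the deeper ones, with a median of 20540 UMIs and 5819 genes against 4896 UMIs and 1406 genes in Malat1-poor cells. They included all 7 deepest cells and held 50.6% of the melanoma UMIs (1012476 of 1999803). The median mitochondrial share was 4.80% in Malat1-bearing and 10.0% in Malat1-poor cells, and the median share of ribosomal protein genes 13.4% and 26.7%. In Malat1-poor ECs the ribosomal share was 14.0%, at a median of 3023 UMIs. What sets Malat1 apart in these cells was not tested. Each comparison with ECs was therefore also made between Malat1-bearing cells and Malat1-bearing ECs and between Malat1-poor cells and Malat1-poor ECs. These comparisons are called matched below, but they were matched by the Malat1 limit only. The Malat1-poor ECs also held much RNA of other cell types, as given below.

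Across genes, Malat1-bearing cells held more RNA of long genes. Of 7446 genes tested between them, 4330 (58.2%) were at least 2-fold higher in Malat1-bearing cells and 489 (6.57%) at least 2-fold lower, with a median log2 ratio of 1.32. For genes that span up to 5 kb the median was -0.22 (744 genes), and it was 0.33, 0.68, 1.29 and 2.01 in the bins up to 10, 20, 50 and 100 kb. For 1207 genes over 100 kb it was 2.81. The same bins in ECs ran from -0.32 to 0.92. Neat1, another nuclear noncoding RNA, chosen after its values were seen, had 685 CPM (UMIs per 1000000 UMIs of the group) in Malat1-bearing and 6.08 in Malat1-poor melanoma cells. The counting of intronic reads, which bears on these values, is not given in the sources used here. The submitters' processing notes and the study's methods name different versions of Cell Ranger, whose defaults differ in this.

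**Figure D2:**
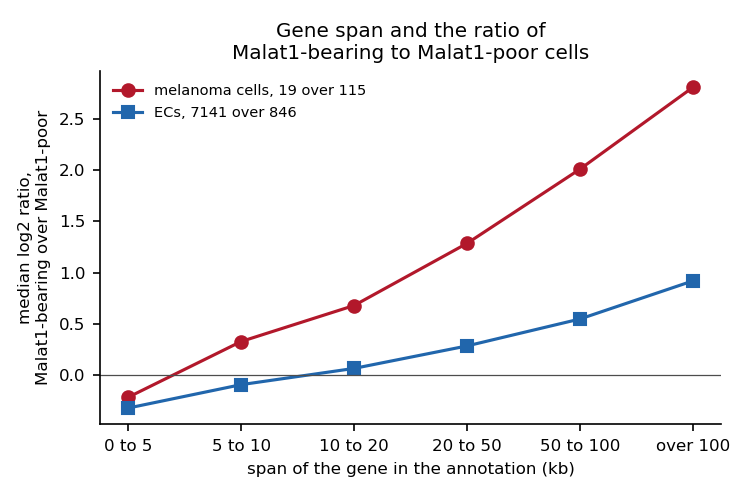
Median log2 ratio of Malat1-bearing over Malat1-poor cells (vertical axis) for genes binned by their span in the annotation in kb (horizontal axis), in melanoma cells (red, 19 over 115) and ECs (blue, 7141 over 846). In melanoma cells the medians go from -0.22 for genes up to 5 kb to 2.81 for genes over 100 kb, and in ECs from -0.32 to 0.92.

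Of the marker genes, Dct and Pmel were seen in every melanoma cell. Dct had 13.5 to 451 UMIs per 10000 in single cells (median 99.8), and Pmel 1.14 to 180 (median 33.8). Tyrp1 had 0 to 127 (median 26.6) and Mlana 0 to 147 (median 23.2). The highest EC had 28.0 of Dct, 9.11 of Pmel, 14.1 of Tyrp1 and 24.1 of Mlana, so single cells of both groups overlapped for each of these genes. The median EC had 0 of each. Barcodes that met the melanoma rule were left out of the ECs, so the rule limited the highest EC values of these genes in part.

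Gpnmb and Ptgds, which the rule did not use, were also high. Gpnmb had 0 to 80.8 UMIs per 10000 (median 13.1) and the highest EC had 9.52. Ptgds had 0 to 428 (median 28.8) and the highest EC had 14.1. Ptgds was the more uneven: its median was 8.89 in Malat1-bearing and 33.1 in Malat1-poor cells, whereas that of Gpnmb was 16.5 and 12.9. Over the 134 cells, which share 1 library and differ in depth, Spearman's rho of the pigment share with Gpnmb was 0.49 and with Ptgds 0.48, as a description.

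**Figure D3:**
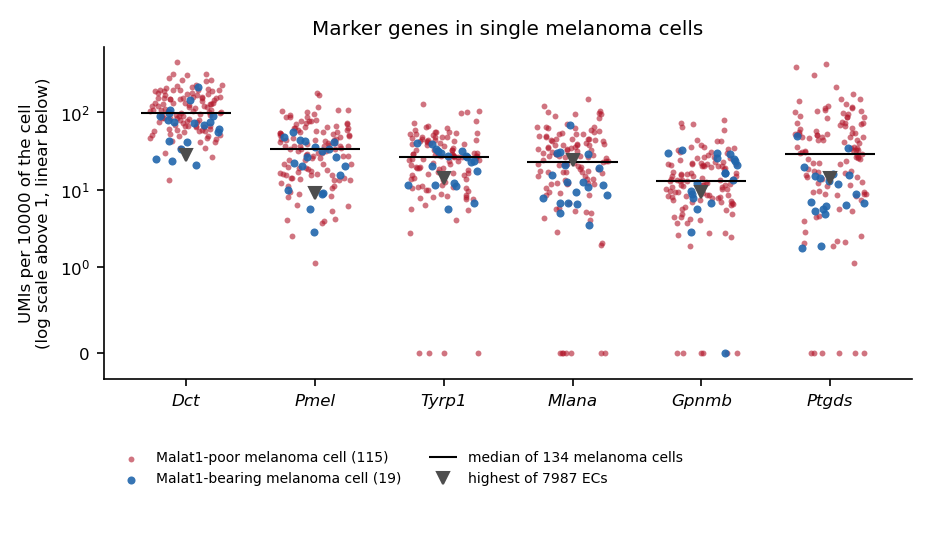
UMIs per 10000 (vertical axis, linear near 0 and logarithmic above) of the 6 marker genes in each of the 134 melanoma cells, with Malat1-bearing cells in blue, Malat1-poor cells in red, the median as a bar and the highest of 7987 ECs as a triangle. Medians run from 13.1 for Gpnmb to 99.8 for Dct, and Ptgds reaches from 0 to 428.

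Summed over cells, 9828 genes could be compared with ECs, having at least 20 UMIs in melanoma cells or as many expected there at the level of the ECs. At least 2-fold higher in melanoma cells were 1660 genes (16.9%), and at least 2-fold lower were 2882 (29.3%). The median log2 ratio over all of them was -0.29, a shift that scaling by the median ratio sets to 0. List counts are to be read against these shares, and list medians against the all-gene median of the same comparison. Between Malat1-bearing groups, 1797 of 8433 genes were higher (21.3%) and 1710 lower (20.3%), with a median of 0.16. Between Malat1-poor groups, 927 of 6526 were higher (14.2%) and 3131 lower (48.0%), with a median of -0.90. Of 6284 genes tested in both matched comparisons, 580 were higher in both, which is 57.4% of those higher in the Malat1-bearing and 70.1% of those higher in the Malat1-poor comparison, and 1301 were lower in both. Only 2 genes were lower in the first and higher in the second, while 71 were the reverse. The Malat1-poor ECs were a mixed reference, with 16748 CPM of epithelial, 15488 of red cell and 1330 of platelet genes. Malat1-bearing ECs had 337, 1827 and 83.0 CPM of these lists. The highest Malat1-poor EC had 20584 red cell UMIs (median 10). How far this RNA moved the ratios between Malat1-poor groups was not tested.

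Pigment genes include the 4 rule genes, whose levels the choice of the cells fixed in part. Of the 27 pigment and melanosome genes, 21 were at least 2-fold higher in melanoma cells and 1 lower, with a median log2 ratio of 6.90 (6.98 and 7.53 in the matched comparisons). Together they had 28845 CPM in melanoma cells and 513 in ECs. Without the 4 rule genes, 17 of 23 were higher and 1 lower, with a median of 6.15 (matched 6.43 and 5.61) and 10607 CPM against 477. Dct had 8958 CPM (8828 to 9091), a log2 ratio over ECs of 9.13 (9.04 to 9.21). Tyr, the first enzyme of melanin synthesis, had 132 CPM (116 to 148) against 0.198. Slc45a2 had 477 against 0.805 CPM and Oca2 had 93.0 against 0.141, both melanosomal transporters, with log2 ratios of 9.21 and 9.36. The melanosome transport pair Mlph and Myo5a had log2 ratios of 6.15 and 4.43, and Cd63, a tetraspanin of melanosomes and late endosomes, 4.97. Rab27a, which links melanosomes to Mlph, did not reach 2-fold (68.0 against 64.1 CPM), nor did Atp7a, Hps4, Ap3b1 and Bloc1s1. Slc24a4, an ion exchanger gene of the same list, was lower at 4.50 against 58.3 CPM. The 4 rule genes had 36.0 CPM in ECs of this library and 0.914 CPM in ECs of the control library, so the EC level that these ratios are set against was itself above that of mice without melanoma cells.

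Of the 12 lineage regulators and receptors tested, of 14 listed, 9 were at least 2-fold higher and 2 lower (median log2 ratio 4.86, matched 5.39 and 3.90). Pax3 had 555 CPM (523 to 589) against 0.268 in ECs, a log2 ratio of 11.01. Sox10 had 151 (134 to 169) against 0.240 CPM, and Mitf 235 (214 to 257) against 20.7. These transcription factors were mainly seen in the Malat1-bearing cells. Pax3 had 1063 CPM in Malat1-bearing and 34.4 in Malat1-poor cells, Sox10 had 263 and 36.5, and Mitf had 380 and 85.1. Of 11 such genes tested between the cells, 10 were at least 2-fold higher in Malat1-bearing cells, with a median of 2.28 against 1.32 over all genes. Most Malat1-poor cells had 0 UMIs of Pax3, and the median Malat1-bearing cell had 9.36 per 10000.

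Among receptors, Met, the receptor of hepatocyte growth factor, had 123 CPM against 1.00 in ECs (log2 ratio 6.93), Erbb3 had 39.0 against 0.466 (6.39), and Mc1r, the melanocortin receptor, had 66.0 against 0.960 (6.10). Kit and Ednrb, receptors that melanocytes need during development and that lung ECs also express, were low. Kit had 16.5 CPM against 685 (log2 ratio -5.37) and Ednrb 6.50 against 192 (-4.88). Of 10 neural crest and dedifferentiation genes tested, of 18 listed, 3 were higher and 5 lower, with a median of -0.65. The matched medians were -1.49, with 3 of 9 higher and 5 lower, and -2.45, with 3 of 10 higher and 7 lower. S100b, a calcium-binding protein used as a melanoma marker, had 179 CPM against 1.17 (log2 ratio 7.25).

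The 15 genes with the highest ratio included 7 outside the pigment and lineage lists. Ankfn1 had 599 CPM against 0.297 (log2 ratio 10.98), and 1163 in Malat1-bearing against 19.2 in Malat1-poor cells. Cdh19, a cadherin of neural crest-derived cells, had a log2 ratio of 10.51. Syt4, a synaptotagmin of vesicle release, had 628 CPM against 1.00 (9.29) and was nearly the same in Malat1-bearing (661) and Malat1-poor cells (594). Glrb, a subunit of the glycine receptor, had 157 against 0.240 CPM, and Pla2g2e, a secreted phospholipase, 107 against 0.198. The genes furthest below ECs included the Notch genes Hey1 (1.00 against 150.2 CPM) and Dll4 (log2 ratio -6.31), the ephrin gene Efnb2 (4.50 against 330.3) and the integrin gene Itga2, with 1 UMI in all melanoma cells against 158 CPM.

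Lysosomal enzymes, which melanosomes share in part, were higher for some genes. Of 25 tested, of 26 listed, 9 were at least 2-fold higher and 3 lower, with a median of 0.82 (matched 0.76 and 1.14). The protease Ctsd had 1505 CPM against 217 (log2 ratio 2.79), the proton pump subunit Atp6v0c 1603 against 249 (2.69), and the hexosaminidase Hexa 314 against 33.8 (3.22). Lamp1, a lysosomal membrane protein, had 521 against 591 CPM (-0.18).

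Macrophages also carry Gpnmb and lysosomal genes, so the melanoma cells were set beside 188 barcodes of the same library with myeloid genes (Lyz2, Cd68, Fcer1g and Tyrobp together at least 10 UMIs and 0.5% of UMIs). This group was mixed and held more epithelial than leukocyte RNA, with 56621 CPM of the epithelial list and 25709 of the leukocyte list. The lung epithelial gene Sftpc alone had 52217 CPM. Values called myeloid-marked are those of this mixed group and not of macrophages alone. Of 10239 genes tested, 1875 were at least 2-fold higher in melanoma cells (18.3%) and 2997 lower (29.3%), with a median of -0.11. Gpnmb had 1870 CPM (1811 to 1931) in melanoma and 98.0 in myeloid-marked cells, a log2 ratio of 4.25. The lysosome list did not favour the melanoma cells: 4 of 26 genes were higher and 7 lower, with a median of -0.24. Psap (log2 ratio -2.68) and Npc2 (-2.45) were lower in melanoma cells and Ctsd (0.47) was not 2-fold apart. Mitf had 235 CPM in melanoma and 162 in myeloid-marked cells, a log2 ratio of 0.54, whereas Pax3 and Sox10 had 0 UMIs in the latter.

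Energy metabolism genes were higher in melanoma cells. Of 17 glycolysis genes tested, of 19 listed, 10 were at least 2-fold higher and 1 lower, with a median of 1.44 (matched 1.41 and 2.09). Together the list had 7075 CPM against 1578 in ECs, and the median cell had 62.1 UMIs per 10000 against 14.9 in the median EC. Gapdh had 2717 CPM (2645 to 2790) against 238 (log2 ratio 3.51), Pgk1 684 against 56.7 (3.59), Eno1 282 against 27.5 (3.36) and the muscle-type pyruvate kinase Pkm 756 against 167 (2.18). Hk2, a hexokinase, had 41.5 against 0.946 CPM (5.45), and the lactate transporter Slc16a1 23.5 against 0.946 (4.63). The glucose transporter Slc2a1 did not differ by 2-fold (9.50 against 11.7 CPM), and Pfkfb3, a regulator of glycolysis in ECs, was lower (13.0 against 136). Gapdh was higher in Malat1-poor (4159 CPM) than in Malat1-bearing cells (1311), as were 9 of the 15 glycolysis genes tested between them.

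Respiratory genes shared this direction. Of 23 nuclear genes of the respiratory chain, 14 were at least 2-fold higher and none lower, with a median of 1.23. In the matched comparisons 6 of 23 and 12 of 22 were higher and none lower (medians 0.58 and 1.12). Of 13 genes of the mitochondrial genome, 12 were higher and none lower, with a median of 1.67, and 8 and 9 of 13 were higher in the matched comparisons (medians 1.07 and 1.20). Uqcrq, a subunit of complex III, had 1343 CPM against 216, and Ppargc1a, a coactivator of mitochondrial biogenesis, had 60.5 against 3.36 (log2 ratio 4.17). Ppargc1a was seen mainly in Malat1-bearing cells (116 CPM against 4.05). Of 12 hypoxia genes tested, of 16 listed, 2 were higher and 3 lower, near the shares over all genes (16.9% and 29.3%), with a median of 0.13. Ero1l, an oxidase of the endoplasmic reticulum, had the highest ratio of these (439 against 42.3 CPM, log2 ratio 3.37). For ribosomal protein genes, 72 of 81 tested were at least 2-fold higher and none lower (median 1.40), but 21 of 81 between Malat1-bearing and 41 of 81 between Malat1-poor groups (medians 0.76 and 1.00). Of 22 genes of ribosome biogenesis and translation, 9 were higher and none lower (median 0.70), with 9 higher and none lower between Malat1-bearing groups (0.73) and 4 higher and 3 lower between Malat1-poor groups (0.29). The pooled calls included the nucleolar genes Npm1 (log2 ratio 1.98) and Ncl (1.53).

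**Figure D4:**
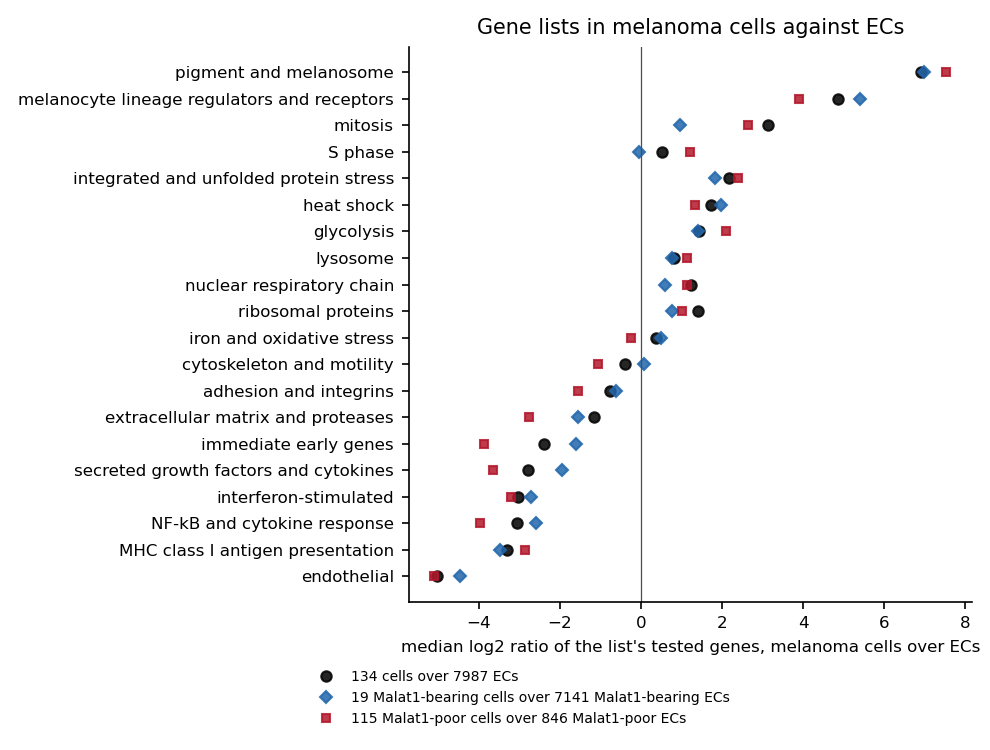
Median log2 ratio of melanoma cells over ECs (horizontal axis) over the tested genes of 20 lists (vertical axis), for all 134 cells over 7987 ECs (black circles), Malat1-bearing cells over Malat1-bearing ECs (blue diamonds) and Malat1-poor cells over Malat1-poor ECs (red squares). The pigment list lies at 6.90, 6.98 and 7.53, the MHC class I list at -3.29, -3.48 and -2.85, and the mitosis list at 3.13, 0.97 and 2.64.

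Mitosis genes were mostly higher in the pooled comparison, whereas most S phase genes were not 2-fold apart. Of 16 mitosis genes tested, of 24 listed, 13 were at least 2-fold higher and none lower, with a median of 3.13. The summed level differed less, with 649 CPM of the 24 listed genes in melanoma cells against 407 in ECs. It was 490 against 401 CPM between Malat1-bearing groups and 812 against 538 between Malat1-poor groups. Mki67, a proliferation marker, had 28.5 CPM against 2.61 (log2 ratio 3.45), Cdk1, the mitotic kinase, 24.0 against 1.47 (4.03) and Birc5, a subunit of the chromosomal passenger complex, 35.5 against 1.86 (4.25). The median was 0.97 over the 5 mitosis genes that could be tested between Malat1-bearing groups, of which 2 were higher and 1 lower. Between Malat1-poor groups it was 2.64, with 12 of 15 higher and 1 lower. Of 15 S phase genes tested, of 24 listed, 5 were higher and none lower, with a median of 0.52 (matched -0.05 and 1.22). Rrm2, which makes deoxyribonucleotides, had 34.0 against 0.734 CPM (5.53). Of 18 cell cycle inhibitors and p53 targets tested, of 20 listed, 2 were higher (Ccng1 and the cyclin Ccnd2, the latter 559 against 133 CPM) and 5 lower, with a median of -0.15, and the inhibitor Cdkn1a had 264 against 566 CPM. The counts of this list were near the shares over all genes, 16.9% higher and 29.3% lower.

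Few cells carried these mitosis UMIs. Cells with at least 10 mitosis UMIs and at least 20 per 10000 numbered 9 of 134 (6.72%, exact interval 3.12 to 12.4), against 27 of 7987 ECs (0.338%, 0.223 to 0.491) and 10 of 846 Malat1-poor ECs (1.18%, 0.568 to 2.16). Among myeloid-marked cells, 9 of 188 met the same limits (4.79%, 2.21 to 8.89), an interval that overlaps that of the melanoma cells. Of the 9 melanoma cells, 8 were Malat1-poor and 1 Malat1-bearing, and none was among the 7 deepest. The highest had 244 mitosis UMIs. The median melanoma cell had 1 and the median EC 3, at median depths of 5706.5 and 8753 UMIs. In myeloid-marked cells the mitosis list summed to 794 CPM, above the 649 CPM of the melanoma cells.

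MHC class I genes, whose products display peptides to T cells, were mostly lower. Of 19 genes, 16 were at least 2-fold lower in melanoma cells than in ECs and 3 higher, with a median of -3.29 (matched -3.48 and -2.85). The heavy chain H2-K1 had 111 CPM (96.9 to 127) against 2029 (log2 ratio -4.19), H2-D1 had 221 (200.4 to 242) against 2553 (-3.53), and the light chain B2m had 499 (469 to 531) against 2147 (-2.10). The peptide transporter Tap1 had 6.50 against 108 CPM (-4.06), and the immunoproteasome subunits Psmb8 and Psmb9 had log2 ratios of -4.79 and -5.02. The 3 higher genes, Calr (917 against 172 CPM), Pdia3 and Canx, are general chaperones of the endoplasmic reticulum. Against myeloid-marked cells the list median was -1.78, with 16 of 19 genes lower and 2 higher. In single cells B2m had 0 to 37.0 UMIs per 10000 (median 5.09), against 0 to 91.1 (median 20.4) in ECs, so the ranges overlapped.

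Interferon-stimulated genes were low as well. Of 22, 18 were at least 2-fold lower and 1 higher, with a median of -3.03 (matched -2.71 and -3.20). Ifitm3, a membrane protein that blocks virus entry, had 301 CPM against 2147 (log2 ratio -2.83). Ifi27 was the exception, with 213 against 69.6 CPM (1.61), but between Malat1-bearing groups it was not 2-fold apart (0.52). Of 15 immune ligands and checkpoints tested, of 20 listed, 4 were higher and 9 lower, with a median of -1.75. The galectins Lgals1 and Lgals3, secreted sugar-binding proteins, had 2562 CPM (2493 to 2633) against 13.1 (log2 ratio 7.61) and 426 against 8.04 (5.73). Raet1e, a stress-induced ligand of an NK cell receptor, had 10.0 against 1.10 CPM (3.18). Cd274, which encodes PD-L1, had 10.5 against 32.5 CPM (-1.63), and Cd47, a signal against phagocytosis, 78.0 against 841 (-3.43).

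Among secreted factors, most that ECs make were low in melanoma cells and a few were high. Of 29 genes tested, of 56 listed, 5 were at least 2-fold higher and 20 lower, with a median of -2.78 (matched -1.94 and -3.65). Mif, macrophage migration inhibitory factor, had 1355 CPM (1304 to 1407) against 61.1 in ECs, a log2 ratio of 4.47 (4.40 to 4.54). It remained high in the matched comparisons, at 3.19 and 4.23, and against myeloid-marked cells (95.8 CPM), at 3.82. Single cells had 0 to 75.8 Mif UMIs per 10000 (median 17.9), with a median of 5.19 in Malat1-bearing and 21.7 in Malat1-poor cells, and the median EC had 0. Over the 134 cells, Spearman's rho of Mif was 0.65 with the glycolysis list and 0.58 with the share of ribosomal protein genes, as a description of cells from 1 library that also differ in Malat1.

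Vegfb, a growth factor that binds Flt1, had 103 CPM against 14.0 (log2 ratio 2.87, matched 2.27 and 2.68), Nppb, a natriuretic peptide, 185 against 0.452 (8.68), Angptl2 55.0 against 3.50 (3.97), and placental growth factor Pgf 13.0 against 2.25 (2.53), the last almost only in Malat1-bearing cells (24.7 against 1.01 CPM). Vegfa, the main angiogenic factor, was lower, with 42 UMIs in melanoma cells (15.1 to 28.4 CPM) against 248 CPM in ECs (-3.56). Kitl, the ligand of Kit, had 30.5 against 969 CPM (-4.99), the chemokine Cxcl12 had a log2 ratio of -5.27, and Inhbb, an activin subunit, had 2.00 against 105 CPM (-5.71). Pdgfa was not 2-fold apart (101 against 120 CPM), with 192 CPM in Malat1-bearing and 8.10 in Malat1-poor cells. The Malat1-poor ratio of Pdgfa was -4.68 and the Malat1-bearing ratio 0.73. No UMI of Bmp4 or Csf2 was seen in melanoma cells, and both count as lower at the floor of 3 UMIs.

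**Figure D5:**
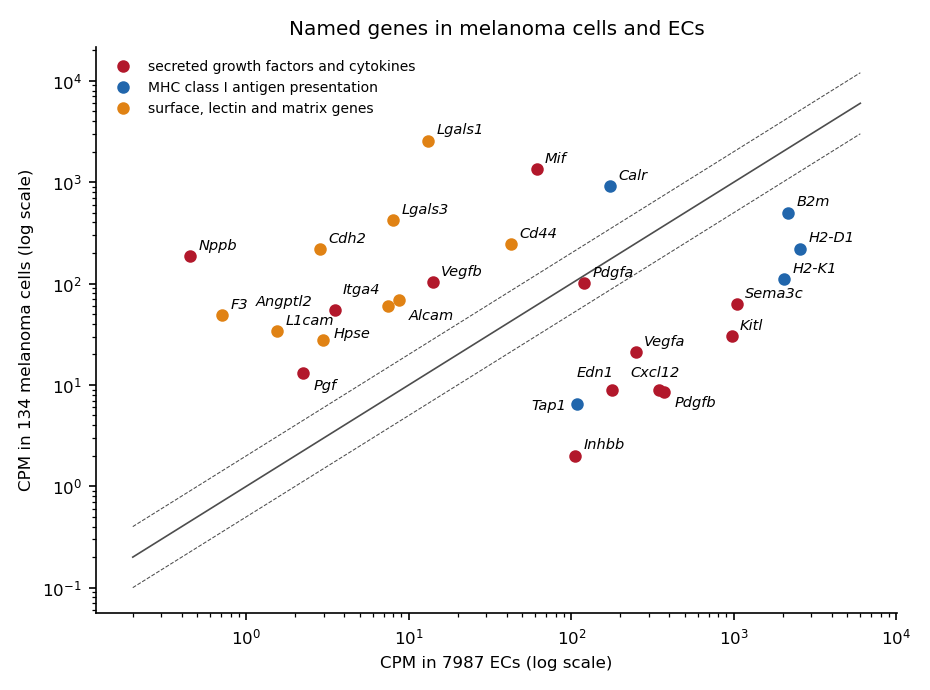
CPM of named genes in the 134 melanoma cells (vertical axis, log scale) against 7987 ECs (horizontal axis, log scale), with secreted factors in red, MHC class I genes in blue and surface, lectin and matrix genes in orange. The solid line marks equal levels and the dashed lines 2-fold, and Lgals1 (2562 against 13.1) and Mif (1355 against 61.1) lie above them while H2-K1 (111 against 2029) and Kitl (30.5 against 969) lie below.

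Cytokine response and immediate early genes were low. Of 18 NF-kB and cytokine response genes tested, of 20 listed, 15 were at least 2-fold lower and none higher, with a median of -3.06 (matched -2.58 and -3.97). The kinase gene Pim3 had 26.0 CPM against 274, Bcl3, an NF-kB cofactor, 7.50 against 114, the oncostatin M receptor Osmr 7.00 against 120, and the feedback inhibitor Socs3 21.5 against 403. Of 15 immediate early genes tested, of 17 listed, 10 were lower and 1 higher (the nuclear receptor Nr4a1, 39.0 against 7.99 CPM), with a median of -2.39 (matched -1.60 and -3.88). These transcription factor genes also differed with Malat1: all 14 tested between the cells were at least 2-fold higher in Malat1-bearing cells, with a median of 3.07, where 58.2% of all genes were as much higher, with a median of 1.32. Fos had 441 CPM in Malat1-bearing and 22.3 in Malat1-poor cells, Jun 611 and 50.6, and Klf6 633 and 26.3. The median EC had 59.5 UMIs of the list per 10000, the median Malat1-bearing cell 31.8 and the median Malat1-poor cell 2.53.

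Stress genes were high in several branches. Of 20 genes of the integrated and unfolded protein stress responses tested, of 22 listed, 13 were at least 2-fold higher and 3 lower, with a median of 2.17 (matched 1.82 and 2.39). Phgdh, the first enzyme of serine synthesis, had 329 CPM (304 to 355) against 2.51 (log2 ratio 7.03), the chaperone Hspa5 1591 against 226 (2.82), and the transcription factor Ddit3 133 against 13.1 (3.34). Of 13 heat shock genes tested, of 14 listed, 10 were higher and none lower, with a median of 1.74 (matched 1.97 and 1.34). Hsp90aa1, a chaperone, had 3172 against 243 CPM (3.71), and Cryab, a small heat shock protein, 1073 against 18.5 (5.86). Of 22 iron and oxidative stress genes, 7 were higher and 5 lower, with a median of 0.37 (matched 0.50 and -0.24). The metallothionein Mt1 had 1371 against 70.6 CPM (4.28), the heme oxygenase Hmox1 313 against 31.5 (3.31), and the iron exporter Slc40a1 5.50 against 46.6 (-3.08).

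Adhesion genes went in both directions. Of 24 tested, of 26 listed, 6 were at least 2-fold higher and 11 lower, with a median of -0.77 (matched -0.61 and -1.56). Over all genes 16.9% were higher and 29.3% lower, with a median of -0.29 (matched 0.16 and -0.90). Cdh2, N-cadherin, had 218 CPM (198 to 239) against 2.85 (log2 ratio 6.26), with 396 in Malat1-bearing and 35.4 in Malat1-poor cells. Cd44, a hyaluronan receptor, had 247 against 42.4 CPM (2.54), L1cam 34.0 against 1.55 (4.45), and Itga4, a subunit of the receptor of Vcam1, 60.0 against 7.46 (3.01). Alcam had 69.5 against 8.64 CPM (3.01), though 0.31 between Malat1-poor groups. The laminin and collagen receptor genes Itga6 (-2.55) and Itga1 (-5.03) were lower.

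Of 23 matrix and protease genes tested, of 32 listed, 4 were higher and 13 lower, with a median of -1.17 (matched -1.55 and -2.76). Tissue factor, F3, which starts coagulation, had 49.0 CPM (39.8 to 59.7) against 0.706 (6.12), and the heparanase Hpse 27.5 against 2.95 (3.22). The basement membrane collagen Col4a1 had 50.5 against 1173 CPM (-4.54). Of 32 cytoskeleton and motility genes tested, of 33 listed, 7 were higher and 8 lower, with a median of -0.40 (matched 0.06 and -1.06). The counts of this list were near the shares over all genes, 16.9% higher and 29.3% lower. Anxa1, a membrane-binding protein, had 178 against 5.95 CPM (4.90), Tmsb10 had 2400.2 against 476 (2.33) and its relative Tmsb4x 189 against 2930 (-3.96). Both encode actin-binding thymosins. Of 19 cholesterol and lipid synthesis genes tested, of 22 listed, 7 were higher and 2 lower, with a median of 0.50 (matched 1.51 and -0.04), among them the desaturase Scd2 (3.08) and Cyp51 (3.07), a step of sterol synthesis.

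Markers of other cells were low. All 16 endothelial genes were at least 2-fold lower than in ECs, with a median of -5.02 (matched -4.46 and -5.10), and they summed to 780 CPM against 23114. None of the 16 was at 0. Pecam1 and Cdh5 chose the ECs, so their difference was fixed in part by that choice, and without them all 14 genes were lower with a median of -5.02. Pecam1 had 35.5 CPM against 1212 and Cdh5 62.0 against 1810. The 14 leukocyte genes had 91 UMIs in all melanoma cells together, with 4 genes at 0, and Ptprc had 15 UMIs. Platelet genes had 71 UMIs, mural genes 60, epithelial genes 180 and fibroblast genes 16, and 1, 1, 2 and 3 of these genes were at 0. Cspg4, a proteoglycan of pericytes that melanoma cells also carry, was the only mural gene that was higher (22.5 against 1.36 CPM, log2 ratio 4.05). Of the 5 platelet, 3 epithelial and 2 fibroblast genes tested, all were lower, as were the other 4 mural genes. The epithelial result depended on the member rule: its list median of -3.40 was 1.83 with members at 10 UMIs and 0.25%.

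The Y-linked genes Ddx3y, Eif2s3y, Kdm5d and Uty, which the male host expresses, together with Xist had 17 UMIs in the melanoma cells, or 8.50 CPM against 267 in ECs. Ddx3y had 11 of these UMIs and Xist none. All 4 genes tested were lower (median -5.60).

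RNA outside cells was read from barcodes with 1 to 100 UMIs. Red cell genes had a median of 10.5 UMIs in a melanoma cell (2 to 25) and 10 in an EC, and their level per 10000 was lower in deeper cells (Spearman's rho -0.94 over 134 cells). At the ratio to red cell genes seen in near-empty barcodes, 574 endothelial UMIs were expected in the melanoma cells and 1559 were seen. For epithelial genes 243 were expected and 180 seen, and for leukocyte genes 56.4 and 91. For MHC class I genes 331 were expected and 6259 seen, over all 19 listed genes with the chaperones Calr, Pdia3 and Canx. How much of the heavy chain UMIs was free RNA was not tested. For a subtraction, the profile of the near-empty barcodes was scaled in another way, to the endothelial gene with the lowest ratio of melanoma to near-empty RNA. This subtraction removed 1.99% of the melanoma UMIs. The MHC class I list median was -3.29 before it and -3.55 after it.

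Endothelial RNA was uneven among the melanoma cells. Pecam1 and Cdh5 together reached 2 UMIs in 18 of 134 (13.4%, exact interval 8.16 to 20.4), 88 had none, and the highest had 66. Only 4 cells had at least 10, all of them Malat1-bearing, and no Malat1-poor cell had more than 4. The 18 cells were 10 Malat1-bearing and 8 Malat1-poor cells, at a median of 13463 UMIs. As a background, the myeloid-marked cells had a median of 1 such UMI at a median of 10343.5 UMIs. Doublets were not removed, and whether a barcode held both cells was not tested.

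Of 6234 genes tested between the 18 cells and the other 116, 2100 were at least 2-fold higher in the 18 (33.7%) and 137 lower (2.20%), with a median of 0.64. Of the 14 endothelial genes tested, 11 were higher and none lower, with a median of 1.88, and Pecam1 and Cdh5 defined the groups. All 14 immediate early genes tested were higher as well, with a median of 2.34: Jun had 768 CPM against 84.4 and Fos 515 against 71.8. Ccn2, a matrix-associated growth regulator, had 555 against 70.2 CPM, and Slc18a1, a vesicular monoamine transporter that ECs hardly expressed (0.155 CPM), 149 against 3.94. Of the 15 genes with the highest ratio, Cdh5 and Tmem100 were on the endothelial list, and 9 had a higher CPM in ECs than in melanoma cells, such as Jun (1712 against 335) and Nfkbia (556 against 92.0). A higher CPM in ECs was common among all genes: over the 9828 compared, the median log2 ratio of melanoma cells over ECs was -0.29. Depth and Malat1 differed between these groups in the same direction, and their part in the differences was not tested. None of the 18 met the mitosis limits.

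To compare how unevenly genes were spread, 113 melanoma cells were thinned to 2000 UMIs, and 21 were too shallow. Variance over mean, which is near 1 for pure counting error, was 72.8 for the mitochondrial gene mt-Atp6 and 58.2 for Malat1 (28.1 in ECs), and 63 of the 113 cells then had no Malat1 UMI. Ptgds followed outside these and Gm42418, at 19.0, with 0 to 90 UMIs per thinned cell (median 6) and 13 cells at 0. Dct was at 8.44, with 2 to 73 UMIs (median 19) and no cell at 0. Some genes sat in few cells. Hspa1b, an inducible chaperone, had 0 UMIs in 106 of 113 cells and up to 18 in the rest, and Atf3, a stress-induced transcription factor, 0 in 105 and up to 17. Other chaperones were more widely seen, with Hsp90aa1 at 0 in 13 cells and Hspa5 in 34. Cryab had 0 to 38 UMIs, with 41 cells at 0. In ECs the same measure was 1.16 for Ptgds, 1.47 for Dct, 0.990 for Hspa1b and 1.16 for Cryab.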

How the data were processed

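Each group was 1 droplet single-cell library. The deposited files hold UMI counts per gene and barcode, which the authors made with Cell Ranger (version 7.2.0 per the submitters' processing notes and file headers) and the mm10 genome, unfiltered for cells. The study's methods name an earlier Cell Ranger version. Per the labels the libraries used the 3′ kit, version 2, but the 1779952 barcodes listed for the B16-F10 library exceed that kit's barcode set, so the versions are not settled. From these counts, UMIs were summed over melanoma cells and over ECs and scaled to CPM. Intervals are exact (Poisson for CPM, conditional binomial for log2 ratios, Clopper-Pearson for shares), at the 95% level. UMIs of 0 were set to a floor of 3 counts. A gene was called at 2-fold or more, with at least 20 UMIs seen or expected, and no test was made. Members and gene lists were chosen with earlier results of these data known. Named genes were the markers, the list genes, and the top 15 by ratio (highest and lowest), by CPM, by variance over mean and by ratio between cells with and without Pecam1 and Cdh5, with at least 100 CPM. Doublets were not removed. Scripts were tested on simulated data. Python 3.11.15, numpy 2.4.6, scipy 1.17.1, pandas 2.3.3 and matplotlib 3.10.9 were used. Gene spans came from GENCODE M21, which held 32158 of 32285 gene identifiers. Alternatives changed the member rule, gene limits, scaling, gene minimum and reference cells. The control library served as background, and its ECs as the reference of 1 alternative.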

Additional observations from a re-analysis of the deposited data

Results flagged for a closer look

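RNA of the 4 pigment genes was also found in barcodes of the B16-F10 library outside the melanoma cells, above the level in the control library, where all barcodes together had 84 such UMIs (0.979 CPM). ECs had 36.0 CPM, against 0.914 CPM in control ECs, and 1714 of the 7987 held at least 1 such UMI. Other barcodes with at least 500 genes had 57.7 CPM, against 1.54 CPM in the control. Barcodes with fewer than 500 genes and over 100 UMIs had 1459 CPM, against 0.985 CPM, and held 13388 UMIs or 23.7% of all pigment UMIs of the library. Barcodes with 1 to 100 UMIs had 850 CPM (820 to 882), against 0.705 CPM. The melanoma cells held 64.6% of the pigment UMIs of their library. Whether the UMIs outside them came from broken cells or from cells below the limits was not tested.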

How the results depend on the processing

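Of 162 named genes, 156 were at least 2-fold apart from ECs. Of these, 142 kept this in the same direction under every alternative in which they had a value. The exceptions were Ldha, Canx, Alcam, Atf3, Ifi27, Malat1, Fth1, Ftl1, Cd274, Aldoa, Bcl2, Bst2, Cdkn1a and Ncl. Among the 18 alternatives, the minimums of 10 and 50 UMIs refit no single gene. In the others, a gene below the minimum had no value. The log2 ratio of Bcl2 (1.24) was -1.15 with at most 5000 genes per cell and -0.072 without the 7 deepest cells. The epithelial list median (-3.40) was 1.83 with members at 10 UMIs and 0.25%. The red cell list median (-1.73) was 0.25 with the mean CPM of single barcodes, so both changed sign. With at most 5000 genes per cell, 11 rather than 18 cells held Pecam1 and Cdh5. The 1660 higher genes became 1030 with at most 5000 genes, 589 after thinning, 1104 without the 7 deepest cells and 927 in Malat1-poor cells, and the 2882 lower genes 4673 with the mean CPM of single barcodes, 1414 after thinning and 1710 in Malat1-bearing cells. The pigment median (6.90) was 7.67 with at most 5000 genes, 8.41 after thinning, 7.47 with a minimum of 50 UMIs, 6.38 against control ECs, 7.49 without the 7 deepest cells, 7.53 in Malat1-poor cells and 6.15 without the 4 rule genes. The lysosome median (0.82) was 0.50 with mean CPM, 1.11 with median scaling and 1.14 in Malat1-poor cells, and the mitosis median (3.13) 3.80 with at most 5000 genes, 4.58 against control ECs and 0.97 in Malat1-bearing cells. The glycolysis median (1.44) was 1.82 with members at 40 UMIs and 1%, 2.59 with at most 5000 genes, 1.83 below 20% mitochondrial UMIs, 2.29 without the cells holding Pecam1 and Cdh5, 1.76 with mean CPM, 2.48 after thinning, 1.73 with median scaling, 1.34 and 2.16 with minimums of 10 and 50 UMIs, 2.28 against control ECs, 2.46 without the 7 deepest cells and 2.09 in Malat1-poor cells. The MHC class I median (-3.29) was -3.80 without the cells holding Pecam1 and Cdh5 and -2.85 in Malat1-poor cells, and the secreted factor median (-2.78) was -1.94 in Malat1-bearing cells. The median over all genes itself (-0.29) was -1.27 with at most 5000 genes and -0.98 without the 7 deepest cells. Leaving out the 7 deepest cells or the rule genes, and the division by Malat1, were added after seeing the data. The cause of these shifts was not tested. No paired analysis was possible because there was 1 library a group. With 134 cells of 1 library, counting error is the only error measured, and variation between mice was not.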
